A study of Mus musculus with 41 samples.

Results

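CUT&RUN (CNR) releases and sequences the DNA fragments around a protein on chromatin, with a nuclease tethered to an antibody. Here the positions of SOX9 and of the histone methyltransferases MLL3/4 were compared in epidermal stem cells (EpdSCs) 2 weeks (W2) after *Sox9* was switched on. The pooled list of each antibody was used, made by the authors from 2 samples each. A SOX9 peak was called co-occupied where an MLL3/4 peak overlapped it by at least 1 bp, and SOX9 alone where none did. MLL3/4 peaks were divided in the same way. Of the 18657 SOX9 peaks, 14682 were co-occupied and 3975 were SOX9 alone, and of the 29281 MLL3/4 peaks, 15028 were co-occupied and 14253 were MLL3/4 alone. Both lists together held 47938 of the 216747 peaks in the 12 lists used here.

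By the labels all samples came from male mice of strain CD1 and genotype K14rtTA; TRE-myc-Sox9, so that doxycycline (DOX) drives a MYC-tagged *Sox9* transgene wherever the Krt14 promoter expresses rtTA. DOX was injected at postnatal day 21 and then given in the feed, and W2 mice were 35 days old. D0 mice carried the same alleles, had received no DOX and were 21 days old, and W1 mice had 1 week of DOX and were 28 days old. W6 mice were 63 days old, and W12 skin had been taken from newborn pups and grafted onto female immunodeficient Nude hosts, so age and, at W12, grafting changed along with the weeks of DOX and cannot be told apart from them. Cells were sorted from back skin as CD49f-high, CD34-neg and Ly6A-high, without CD31, CD45, CD117 or CD140a. The SOX9 antibody does not separate the transgenic from the endogenous protein. Cultured keratinocytes with or without DOX supplied 4 further lists for comparison. The labels give them the same genotype, while the study's methods describe cultured Krt14-rtTA cells that received a DOX-dependent MYC-tagged *Sox9* by lentivirus and were selected with puromycin.

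Because each group has a single pooled list, the lists show no spread between replicates and no test between groups was possible. The 95% intervals given here are Wilson intervals for shares and Newcombe intervals for differences, and they cover counting error over peaks only. PCR fragments without molecular identifiers are not independent molecules. As a background, the same peaks were moved by 10 kb to each side and the overlap was counted again. The maximum of a SOX9 peak ran from 1834 to 105046 RPKM, with a median of 3132 RPKM, which corresponds to 41 overlapping fragments for the median peak and 24 for the weakest if the smallest step between values is 1 fragment. MLL3/4 maxima were whole numbers from 5 to 5276, with a median of 7. The study's methods describe RPKM scaling for these tracks as well, but whole numbers this low do not look like RPKM, so the unit and the number of fragments behind an MLL3/4 peak are uncertain and MLL3/4 signal was used only as a rank. A limit of 1800 RPKM on the maximum had been applied to the SOX9 list. Most MLL3/4 maxima lay far below that value and none was below 5, so whether another limit was applied there is not known. In pooled cells, fewer cells with a protein at a site and less of it per cell cannot be told apart, and an overlap of peaks does not show both proteins on the same DNA molecule. A peak that is absent from a list shows only that the caller's limits were not passed there.

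SOX9 is a transcription factor of the HMG-box family that bends DNA, can bind sites on nucleosomes and is required for hair follicle stem cells. MLL3 and MLL4 (genes *Kmt2c* and *Kmt2d*) are the catalytic subunits of related complexes that place the mono-methyl mark on lysine 4 of histone H3 at enhancers, and they have no DNA word of their own. AP1 is the family of FOS and JUN dimers, which bind many enhancers of keratinocytes. EpdSCs maintain the interfollicular epidermis and do not normally express SOX9.

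The windows below show what the peak centres look like, with 2 strong co-occupied sites followed by 5 strong SOX9-alone sites. Each is 101 bases of mm10 (GRCm38.p6), plus strand, around the centre of the SOX9 maximum. The word near names the gene with the nearest protein-coding start, which was 197 kb away for *Insc* and 72.5 kb for *Map4k3*. The *Ahr* site lay in an intron of *9130015A21Rik* and *Gm34047*. Capitals mark a SOX word (CCATTGT or CCTTTGT or GCATTGT or GCTTTGT) or an AP1 word (TGACTCA or TGAGTCA) on either strand.
Near Sgk1, co-occupied, chr10:21847538-21847638: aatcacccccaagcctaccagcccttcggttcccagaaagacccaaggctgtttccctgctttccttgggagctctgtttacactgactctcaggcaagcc
Near Ahr, co-occupied, chr12:35684536-35684636: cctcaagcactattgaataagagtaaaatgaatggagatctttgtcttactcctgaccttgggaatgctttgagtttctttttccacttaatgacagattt
Intron of Aqp9, SOX9 alone, chr9:71151582-71151682: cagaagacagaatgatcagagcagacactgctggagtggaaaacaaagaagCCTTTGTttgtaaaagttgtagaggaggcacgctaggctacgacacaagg
Intron of Pkd2l1, SOX9 alone, chr19:44184393-44184493: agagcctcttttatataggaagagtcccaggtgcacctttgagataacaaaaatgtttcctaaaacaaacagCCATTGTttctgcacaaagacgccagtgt
Near Insc, SOX9 alone, chr7:114991385-114991485: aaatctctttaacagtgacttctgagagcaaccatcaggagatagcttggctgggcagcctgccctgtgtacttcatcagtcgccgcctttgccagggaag
Intron of Atp6v0e, SOX9 alone, chr17:26693827-26693927: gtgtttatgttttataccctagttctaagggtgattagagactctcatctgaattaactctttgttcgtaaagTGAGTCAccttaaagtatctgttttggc
Near Map4k3, SOX9 alone, chr17:80800912-80801012: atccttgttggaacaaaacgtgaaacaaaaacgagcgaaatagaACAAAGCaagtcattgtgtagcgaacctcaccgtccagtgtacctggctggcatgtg

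The co-occupied examples are not the whole set of strongest sites, so how often a word occurs cannot be read from these windows. Over all peaks, 14.3% of co-occupied and 19.9% of SOX9-alone windows hold a SOX word. The co-occupied peak near *Sgk1* (chr10:21846326-21848541) was intergenic, 34.6 kb from the start of the gene, 2216 bp wide and rank 11 of the SOX9 list and 22 of the MLL3/4 list by total signal. Its maximum was only 5424 RPKM, against 26663 RPKM for the peak 150 kb from *Ahr* (chr12:35683767-35684943, rank 12 and rank 23). The SOX9 and MLL3/4 maxima were 17 bp apart at the *Ahr* site. Both of these sites had an MLL3/4 peak at D0, before SOX9 was induced, and the *Ahr* site was in the SOX9 list of D0 as well. The strongest SOX9-alone peak, in an intron of *Aqp9* (chr9:71151341-71151817), reached 17113 RPKM and was rank 481, so every SOX9 peak ranked above it was co-occupied. The *Pkd2l1* peak (chr19:44184236-44184625) reached 13828 RPKM at rank 511 and was found in the SOX9 lists of W1, W6 and W12 and in the MYC-tag list of cultured cells with DOX. None of the 5 SOX9-alone sites was in the MLL3/4 list of D0, although 4 of the 5 were in that of W1.

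Across the genome, 78.7% of SOX9 peaks were co-occupied (78.1 to 79.3), against 5.53% of the same peaks moved by 10 kb. Seen from the other side, 51.3% of MLL3/4 peaks were co-occupied (50.8 to 51.9), against 3.63% after the move, and 21.5% when only SOX9 peaks with maxima above 3600 RPKM were used. After overlapping peaks were merged into 32691 regions, 14463 regions (44.2%) held both proteins, 3975 (12.2%) SOX9 only and 14253 (43.6%) MLL3/4 only. Regions with both were wider, with a median of 584 bp, than regions with SOX9 only (360 bp) or MLL3/4 only (300 bp). Among the chromosomes, the share of SOX9 peaks co-occupied ran from 68.2% on X (61.4 to 74.2, n = 201 peaks) to 82.9% on chromosome 3 (80.5 to 85.1, n = 1043 peaks).

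SOX9 peaks were co-occupied at D0 and W1 too, but these lists differ in size. At D0 770 of 792 SOX9 peaks were co-occupied (97.2%) and at W1 12840 of 15651 (82.0%). From the MLL3/4 side the share was 2.21% at D0 and 45.3% at W1. With the 792 strongest SOX9 peaks of each time and the 29281 strongest MLL3/4 peaks, the share was 96.1% at D0, 99.7% at W1 and 99.6% at W2. With the 15651 strongest SOX9 peaks it was 81.2% at W1 (80.5 to 81.8) and 83.2% at W2 (82.6 to 83.7), while with the 10000 strongest it was 93.0% at W1 (92.5 to 93.5) and 90.8% at W2 (90.3 to 91.4). The order of W1 and W2 therefore depended on how many SOX9 peaks were taken. W1 peaks were also wider at the same number, with a median of 816 bp against 546 bp at 10000 peaks and 682 bp against 469 bp at 15651, and their backgrounds were higher, at 8.09% against 6.86% and 6.64% against 5.95%.

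The maxima of co-occupied peaks lay close together. Among the 15247 overlapping pairs, SOX9 and MLL3/4 maxima were a median of 61 bp apart, 44.4% of pairs lay within 50 bp and 90.2% within 250 bp. In 97.7% of pairs the overlap covered at least 50% of the shorter peak. Of the co-occupied SOX9 peaks, 14128 met a single MLL3/4 peak and 554 met 2 or more. Across the 14682 co-occupied SOX9 peaks, the total signals of SOX9 and of the MLL3/4 partner had a Spearman rho of 0.54. These points share a position, and total signal also followed peak width, with a rho of 0.76 in the SOX9 list and 0.90 in the MLL3/4 list. Between partners, the widths had a rho of 0.47 and the mean signals per base a rho of 0.36. SOX9-alone peaks were nearer to MLL3/4 than their background, with an MLL3/4 peak within 1 kb at 17.7% of them (8.87% after the move) and within 5 kb at 39.1% (26.9% after the move).

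**Figure D1:**
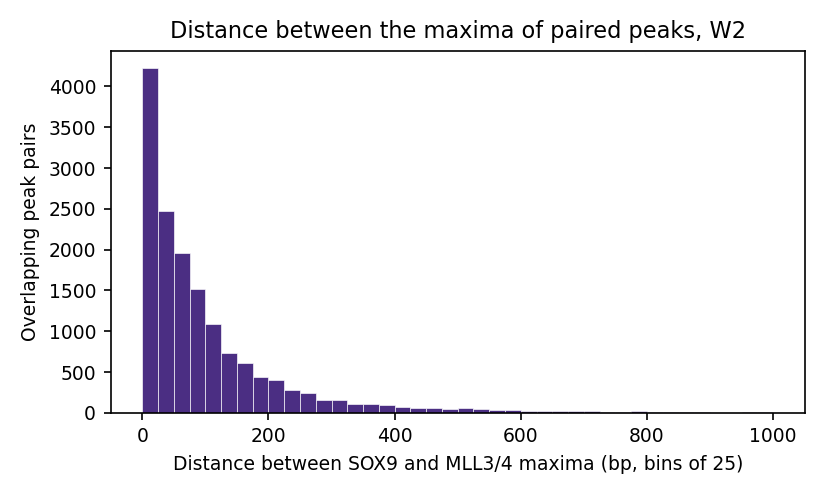
Histogram of the distance in bp between the SOX9 and MLL3/4 maxima of 15247 overlapping peak pairs at W2, in bins of 25 bp, with 21 pairs over 1000 bp not drawn. The first bin is the highest and the counts fall steeply, with a median of 61 bp.

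Co-occupancy differed widely with the rank of a peak within its list. Peaks were ranked by total signal (SEACR's sum of the coverage along a peak) and divided into 10 bins of equal size, with bin 1 the strongest. In the SOX9 list, 98.6% of the peaks of bin 1 were co-occupied (97.9 to 99.0), 83.0% of bin 5 and 53.6% of bin 10 (51.4 to 55.9), a difference of 44.91 percentage points between the first and the last bin (42.56 to 47.22). The share fell at every step from bin to bin. Bin 1 held 27 SOX9-alone peaks and bin 10 held 865. In the MLL3/4 list the share ran from 92.9% in bin 1 to 15.4% in bin 10, a difference of 77.50 points (75.82 to 79.03). With MLL3/4 peaks above their median only, these differences were 70.68 points in the SOX9 list and 43.92 points in the MLL3/4 list. In both lists the weakest bin stayed above its background, which was 3.48% for SOX9 and 1.64% for MLL3/4. Strong SOX9 peaks also met strong MLL3/4 peaks, since the median partner of a bin 1 SOX9 peak stood at percentile 6.72 of the MLL3/4 list, counted from the strongest, and that of a bin 10 peak at percentile 53.3.

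**Figure D2:**
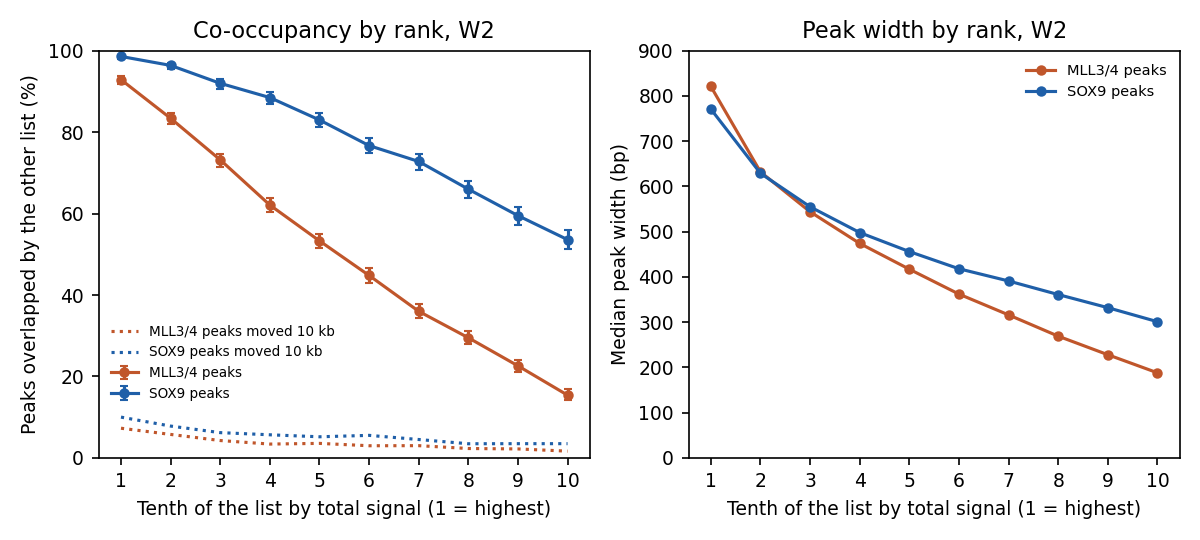
Left, percent of SOX9 and MLL3/4 peaks overlapped by the other list in 10 bins by total signal (1 = strongest), with 95% Wilson intervals and, dotted, the same peaks moved by 10 kb. Right, the median peak width in bp of the same bins, which falls from 771 to 301 bp for SOX9 and from 821 to 188 bp for MLL3/4 as the shares fall from 98.6% to 53.6% and from 92.9% to 15.4%.

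Width changed along with this rank, and a wider peak has more bases on which to meet another. The median width fell from 771 bp in bin 1 to 301 bp in bin 10 of the SOX9 list, and from 821 to 188 bp in the MLL3/4 list. When SOX9 peaks were ranked by their maximum instead, the share fell from 91.8% to 66.0%, and by mean signal per base from 92.4% to 63.5%. When widths and maxima were each divided into 3 classes of equal size, the share among the narrowest SOX9 peaks was 60.9% at the lowest maxima and 70.2% at the highest, and among the widest peaks 84.6% and 97.4%. Both measures thus moved with co-occupancy where the other was held in a class. For MLL3/4 the corresponding values were 20.3% and 48.3% among the narrowest peaks and 48.9% and 85.8% among the widest.

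SOX9 peaks at promoters were co-occupied less often than the others. Peaks within 1 kb of an annotated start were counted as promoter peaks. The share was 72.1% at promoters (70.8 to 73.3, n = 5209 peaks), and in the 4 classes farther away it lay between 79.7% and 81.4%, which overlap in their intervals. The difference between promoters and the rest was -9.19 points (-10.59 to -7.82). Promoter peaks were also weaker, so the difference was taken within each rank bin, where its mean was -5.78 points and it was above 0 in 1 of 10 bins. It was -4.34 points with SOX9 maxima above 3600 RPKM, -15.12 with lists of equal size and -17.90 with MLL3/4 peaks above their median. Of SOX9-alone peaks 36.6% lay at promoters, against 25.6% of co-occupied peaks. In the MLL3/4 list the difference had the opposite sign, with 54.5% of promoter peaks co-occupied against 48.0% to 50.9% farther away, a difference of 4.18 points (2.85 to 5.52). Within rank bins that difference was 8.67 points, above 0 in 9 of 10 bins. It was not resolved from 0 in the strongest 50% of each list (1.80 points, -0.20 to 3.79) or with SOX9 maxima above 3600 RPKM (0.55 points, -0.55 to 1.66).

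**Figure D3:**
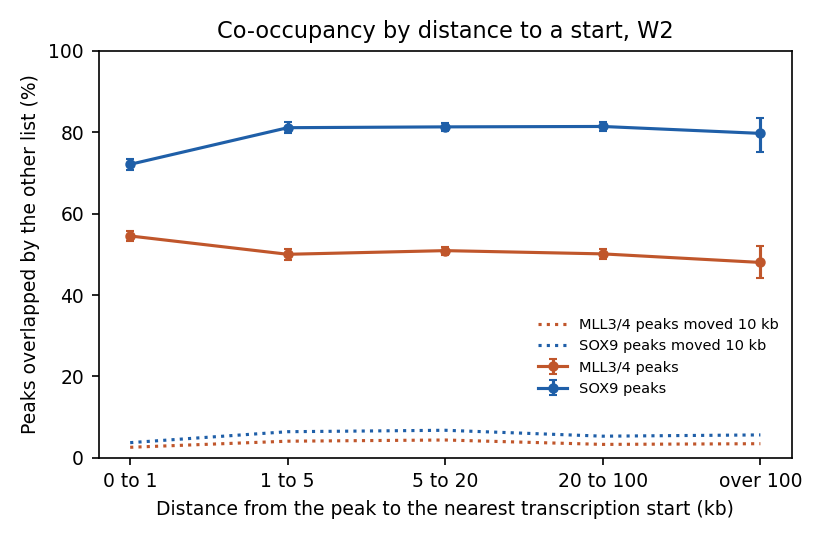
Percent of SOX9 and MLL3/4 peaks overlapped by the other list, against the distance in kb from the peak to the nearest transcription start in 5 classes, with 95% Wilson intervals and, dotted, the same peaks moved by 10 kb. The SOX9 line is lowest at promoters (72.1%) and level beyond 1 kb, and the MLL3/4 line is highest at promoters (54.5%).

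The words under the SOX9 maximum differed between the classes. A SOX word stood in 14.3% of co-occupied windows (13.7 to 14.9) and in 19.9% of SOX9-alone windows (18.7 to 21.2), while control windows of the same length 1 kb to each side held it in 6.25% and 6.21%. The difference of -5.62 points (-7.01 to -4.28) was larger at distal peaks, where 16.1% of co-occupied and 26.0% of SOX9-alone windows held a SOX word. At promoters the values were 8.95% and 9.42%, a difference of -0.47 points (-2.30 to 1.23). SOX words were also more frequent in strong peaks, and within rank bins the mean difference was -12.41 points, with the word more frequent in SOX9-alone windows in 10 of 10 bins. It was -17.08 points for distal peaks and -4.17 points at promoters, where the word was more frequent in co-occupied windows in 3 of 10 bins. The difference over all ranks was -13.26 points with SOX9 maxima above 3600 RPKM, -3.62 with lists of equal size, -2.60 with MLL3/4 peaks above their median and -2.63 for a longer word. In bin 3, for instance, the word stood in 32.7% of 150 SOX9-alone windows and in 15.6% of 1716 co-occupied windows. The order was not the same at each MLL3/4 state of D0. Among peaks with MLL3/4 at D0, 10.1% of co-occupied and 6.55% of SOX9-alone windows held the word. Among those without it the shares were 26.1% and 28.5%, and neither pair was adjusted for rank.

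AP1 words showed the opposite direction. They stood in 16.7% of co-occupied windows (16.1 to 17.3) and 11.9% of SOX9-alone windows (10.9 to 12.9), against 2.00% and 2.06% of control windows, a difference of 4.82 points (3.62 to 5.97). Within rank bins the mean difference was 6.08 points, higher in co-occupied peaks in 10 of 10 bins, and with SOX9 maxima above 3600 RPKM it was 8.29 points. When both words were considered together, 71.6% of SOX9 peaks with a SOX word and no AP1 word were co-occupied (69.8 to 73.3), 84.3% of those with an AP1 word and no SOX word (82.8 to 85.6), 80.4% of those with both (75.8 to 84.4) and 78.9% of those with neither (78.2 to 79.6). Only 327 windows held both words. Among distal peaks, AP1 without SOX (84.4%, 82.8 to 85.8) and neither word (82.8%, 82.0 to 83.5) overlapped in their intervals. At promoters the shares were 83.8% and 71.1%.

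**Figure D4:**
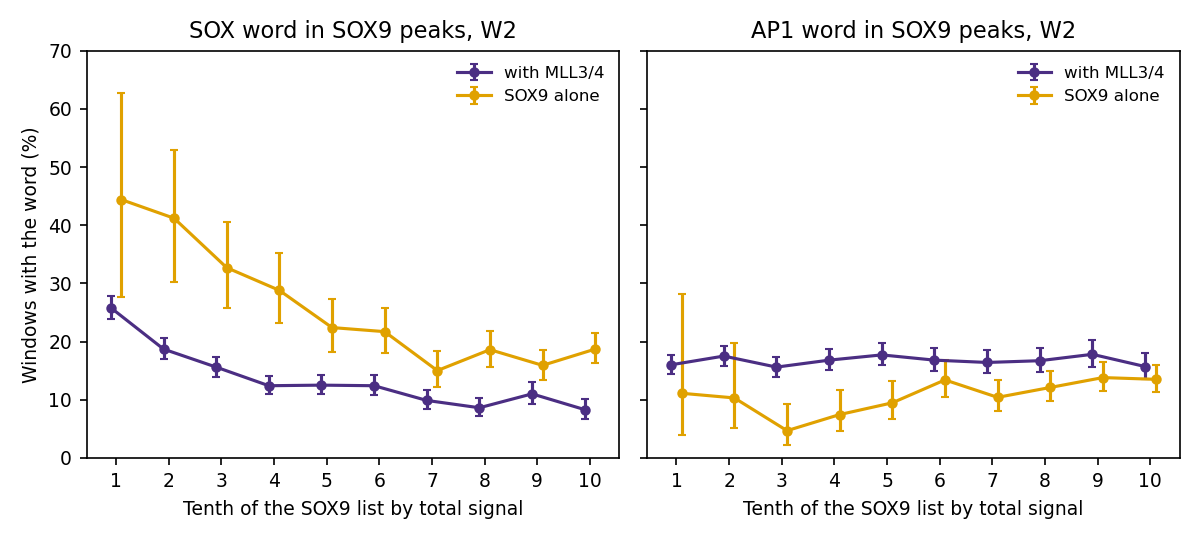
Percent of 101 bp windows at SOX9 maxima that hold a SOX word (left) or an AP1 word (right) in co-occupied and SOX9-alone peaks, by rank bin of the SOX9 list (1 = strongest), with 95% Wilson intervals. SOX words are more frequent in SOX9-alone peaks in all 10 bins and AP1 words in co-occupied peaks in all 10 bins, with wide intervals in bin 1, which has 27 SOX9-alone peaks.

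Of the other words, the TEAD word GGAATGT stood in 2.40% of co-occupied and 1.43% of SOX9-alone windows, against 1.41% and 1.26% of control windows. The word GGGCGG, bound by SP and KLF factors, was less frequent in co-occupied windows (8.90% against 15.6%), and this came from promoters, where the values were 25.4% and 37.2%, while distal peaks gave 3.22% and 3.13%. The RUNX word AACCACA was near its control in both classes, at 2.07% and 2.01% of windows against 2.52% and 2.25% of control windows. SOX9-alone windows were slightly richer in G and C, with a mean of 51.5% against 48.9%, and among distal peaks 47.6% against 47.0%. In the MLL3/4 list, a SOX word stood in 11.4% of co-occupied and 6.87% of MLL3/4-alone windows, the latter close to the 6.22% of control windows. AP1 words stood in 13.8% and 8.90% of these windows, against 2.11% and 1.91% of control windows, so MLL3/4-alone peaks also held more AP1 words than their surroundings.

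Whether MLL3/4 had been at a site before SOX9 was induced went together with co-occupancy at W2. Of the W2 SOX9 peaks, 12373 overlapped an MLL3/4 peak of D0 and 6284 did not. The former were co-occupied at W2 in 87.4% of cases (86.8 to 88.0) and the latter in 61.5% (60.3 to 62.7), a difference of 25.87 points (24.53 to 27.21) that was 21.79 points within rank bins and had the same direction in 10 of 10 bins. Even the 6284 sites without MLL3/4 at D0 stood far above their background of 4.06%. Sites with MLL3/4 at both D0 and W1 reached 92.2%, those with MLL3/4 at W1 and not at D0 80.2%, those at D0 and not at W1 60.6%, and those at neither time 36.0%.

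Co-occupied peaks fell into 2 sets by their state at D0. A set of 10815 had MLL3/4 at D0, and 10.1% of their windows held a SOX word, with 30.1% at promoters. The other 3867 had no MLL3/4 peak at D0, and 26.1% of their windows held a SOX word, with 13.0% at promoters. SOX9-alone peaks were divided in the same way. Of these, 1558 had MLL3/4 at D0 and 59.9% of them lay at promoters, with SOX words in 6.55% of windows. The other 2417 had no MLL3/4 peak at D0, and 28.5% of their windows held a SOX word, with 21.6% at promoters. Among these, 718 had MLL3/4 at W1 and 1699 at none of the 3 times, with SOX words in 27.0% and 29.2% of windows. Among peaks with MLL3/4 at D0, SOX words were thus more frequent in co-occupied than in SOX9-alone windows. Among peaks without it they were slightly less frequent.

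Of the W2 SOX9 peaks, 12809 overlapped a SOX9 peak of W1. Where the W1 peak was co-occupied at W1, 91.5% were co-occupied at W2, and 958 had no MLL3/4 peak at W2. Where the W1 peak was not co-occupied, 48.3% (764 peaks) were co-occupied at W2. SOX9 peaks without a W1 counterpart were co-occupied in 62.4% of cases.

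Co-occupied SOX9 peaks were in other SOX9 lists more often than SOX9-alone peaks when all ranks were pooled. They overlapped a SOX9 peak of W1 in 75.1% against 44.7%, of W6 in 77.4% against 66.5%, and of W12 in 33.8% against 26.9%. Within rank bins the first difference was 11.76 points and higher in 9 of 10 bins, but the W6 difference was -4.15 points and the W12 difference was -10.86 points, each lower in co-occupied peaks in 10 of 10 bins. In bin 3, for instance, 38.3% of 1716 co-occupied peaks and 56.0% of 150 SOX9-alone peaks were in the W12 list. At a like rank, SOX9-alone peaks were therefore found in the later lists at least as often. The MYC-tag list of cultured cells with DOX, which holds transgenic SOX9, overlapped 12.7% of co-occupied and 13.1% of SOX9-alone peaks, and within rank bins the difference was -12.23 points, with the same direction in 10 of 10 bins. The MYC-tag list without DOX overlapped 5.85% and 3.80%, a difference of 2.05 points (1.31 to 2.73) that was 0.88 points within rank bins and higher in co-occupied peaks in 7 of 10 bins.

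MLL3/4 lists of other cells and times overlapped co-occupied peaks more often than SOX9-alone peaks. MLL3/4 peaks of D0 were at 73.7% of co-occupied and 39.2% of SOX9-alone peaks, and those of W1 at 85.8% and 38.7%. In cultured cells without DOX they were at 54.9% and 33.1%, and with DOX at 27.4% and 13.5%. Within rank bins these differences were 39.20 points for D0, 39.06 for W1, 23.09 for culture without DOX and 3.32 for culture with DOX, the last higher in co-occupied peaks in 8 of 10 bins. The cultured list with DOX held 10543 peaks and that without DOX 33975, so these shares are not comparable between the lists.

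**Figure D5:**
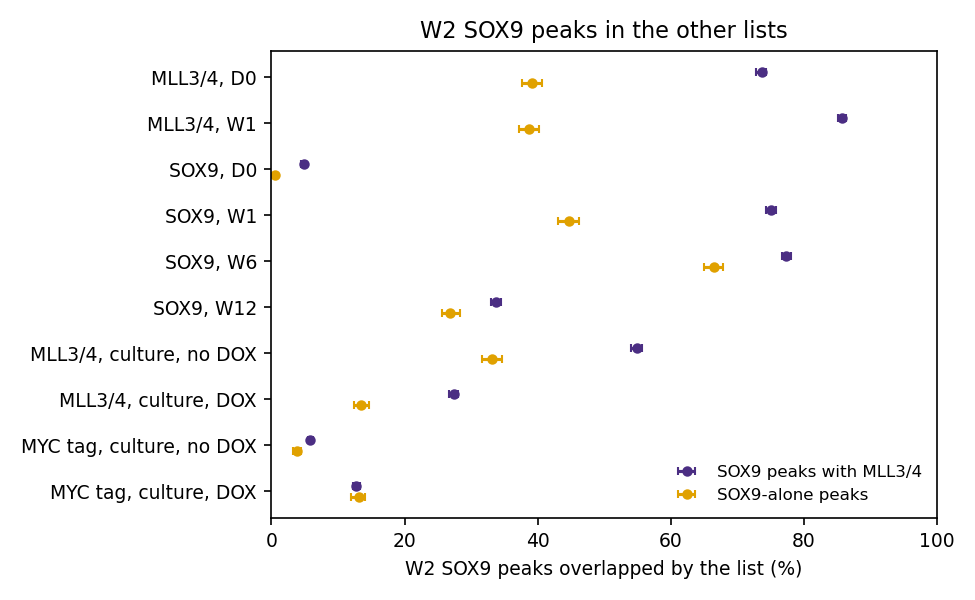
Percent of the 14682 co-occupied and 3975 SOX9-alone W2 SOX9 peaks that overlap each of the other lists, with 95% Wilson intervals and no adjustment for rank. Co-occupied peaks are higher in every list except the MYC-tag list of cultured cells with DOX, where the values are 12.7% and 13.1%.

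Each peak was assigned to the protein-coding gene with the nearest start. Of 21911 genes, 5775 (26.4%) received at least 1 co-occupied SOX9 peak, 1333 (6.08%) received SOX9 peaks of which none was co-occupied, 2474 (11.3%) received MLL3/4 peaks only and 12329 received none. The number of genes with a co-occupied peak depended on the assignment and on the list, with 10884 genes when 50 kb to each side of a gene was searched and 3265 with SOX9 maxima above 3600 RPKM. Co-occupied peaks were concentrated, since 2981 genes had a single one and 219 genes, the top 1%, held 19.4% of all. The genes with the most were *Klf6* and *Gata3* with 32 each, *Myc* with 31, *Rad51b* with 26 and *Runx1* with 25, followed by *Gm26657* with 24 and *Adgrl2*, *Epha4*, *Lpp* and *Tprg* with 23 each. *Klf6*, *Gata3*, *Myc* and *Runx1* encode transcription factors. Genes in wide gene-poor stretches receive more peaks by this assignment, and the farthest co-occupied peak of *Gata3* lay 961 kb from its start. The most SOX9-alone peaks went to *Hes1*, a NOTCH target that encodes a repressor, and *Bcl11b*, with 9 each, and then to *2010111I01Rik*, *Xylt1* and *Nck2* with 8 each. Each of these also had co-occupied peaks, 19 at *2010111I01Rik*, 8 each at *Hes1* and *Xylt1*, 6 at *Nck2* and 4 at *Bcl11b*.

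Gene lists that fit the tissue, of 20 genes each, were compared with the 26.4% of all genes, by the nearest start. Among transcription factors of the hair follicle, 16 of 20 had a co-occupied peak, among follicle stem cell and bud markers 16 of 20, and among transcription factors of the epidermis 18 of 20. The counts were 14 of 20 for epidermal structure and adhesion, 17 of 20 for the NOTCH and EGFR pathways, 12 of 20 for AP1 and the MLL3/4 or SWI/SNF complexes (9 of 10 AP1 and related genes and 3 of 10 complex genes), 10 of 20 for the hedgehog and WNT pathways and 6 of 20 for markers of other skin cells. By share of their SOX9 peaks, epidermal structure genes stood highest with 83 of 91 co-occupied (91.2%, 83.6 to 95.5), and AP1 and complex genes lowest with 38 of 54 (70.4%, 57.2 to 80.9), against 78.7% over all genes.

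The lists also differed in whether their co-occupied peaks had carried MLL3/4 at D0. Over all genes this was so for 73.7%. It was 61.4% for transcription factors of the hair follicle (52.8 to 69.2, 81 of 132 peaks) and 58.0% for follicle stem cell and bud markers (47.5 to 67.7, 51 of 88), against 74.8% for epidermal transcription factors (67.2 to 81.2, 110 of 147) and 84.3% for epidermal structure and adhesion (75.0 to 90.6, 70 of 83). Among AP1 and complex genes it was 97.4% (86.5 to 99.5, 37 of 38), and 30 of these peaks were at AP1 and related genes. It was 69.9% for the NOTCH and EGFR pathways (58 of 83), 66.7% for the hedgehog and WNT pathways (48.8 to 80.8, 20 of 30) and lowest, at 47.1%, for markers of other skin cells (26.2 to 69.0, 8 of 17), so a low share was not particular to follicle genes. Single genes weighed heavily, and the share was 81.2% for epidermal structure and adhesion without *Perp* (70.4 to 88.6), 69.2% for follicle factors without *Runx1* (59.9 to 77.1), 66.2% for follicle markers without *Ccn2* (55.1 to 75.8), 78.3% for the hedgehog and WNT pathways without *Fzd7* (58.1 to 90.3) and 66.7% for other skin cells without *Dct* (39.1 to 86.2). These 5 intervals hold the 73.7% of all genes, as do those of epidermal factors without *Prdm1* (78.5%, 70.9 to 84.6) and of the NOTCH and EGFR pathways without *Dusp6* (72.9%, 61.5 to 81.9). AP1 and complex genes without *Fosl2* stayed above it, with 34 of 34 peaks (89.8 to 100). Peaks of a gene are not independent of each other, and no test of these differences was made.

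Among the hair follicle factors, *Runx1* had 25 co-occupied peaks, of which 7 had MLL3/4 at D0, and 4 SOX9-alone peaks. Its strongest co-occupied peak (chr16:92998582-92999200) was rank 39 of the SOX9 list and rank 408 of the MLL3/4 list and lay 173 kb from the start, with no MLL3/4 peak at D0 and one at W1, and it was already in the SOX9 list of D0. *Barx2*, a homeobox factor, had 16, of which 11 had MLL3/4 at D0, and *Nfib*, a factor of follicle stem cells, had 14, of which 11 did. *Vdr*, the vitamin D receptor needed for hair cycling, had 13, all within 16.3 kb of its start. *Lhx2*, a factor of follicle stem cells, received 3 MLL3/4 peaks and no SOX9 peak. *Sox9* itself received 10 co-occupied peaks, 3 SOX9-alone peaks and 23 MLL3/4-alone peaks.

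Among follicle stem cell and bud markers, *Lrig1*, a regulator of EGF receptors, had 15 co-occupied peaks and 0 SOX9-alone peaks, and its strongest (chr6:94718044-94719583) was rank 85 of the SOX9 and rank 120 of the MLL3/4 list. *Gas1*, which encodes a hedgehog co-receptor, had 14, of which 6 had MLL3/4 at D0. *Ccn2*, a matricellular protein, had 11, and none of these had MLL3/4 at D0. *Itga6*, the integrin chain CD49f that was used in the sort, had 10, of which 9 had MLL3/4 at D0. *Lgr6* received 2 SOX9-alone peaks and no co-occupied peak, and its strongest was rank 15086.

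The epidermal factors were occupied together as well. *Gata3* had 32 co-occupied peaks, of which 27 had MLL3/4 at D0, and 27 MLL3/4-alone peaks, and its strongest co-occupied peak (chr2:9486474-9487928) lay 386 kb from the start. *Klf5* had 17 co-occupied peaks, of which 12 had MLL3/4 at D0, *Trp63*, the master factor of stratified epithelia, had 13, of which 8 did, and *Ehf* had 12, of which 5 did. *Cebpb* received 1 SOX9-alone peak, a weak one of 1910 RPKM at rank 16592, and *Ovol1* 3 MLL3/4 peaks only. Among genes of structure and adhesion, all 14 co-occupied peaks of *Perp*, a desmosome protein, had MLL3/4 at D0, and so did 9 of the 12 of *Dsp*, 8 of the 11 of *Cldn1* and 7 of the 8 of *Pkp1*. *Krt10*, a keratin of differentiating layers, and *Dsg1a* received MLL3/4 peaks and no SOX9 peak at W2, and the strongest MLL3/4 peak of each was also in the MLL3/4 list of D0 and in the SOX9 list of W1.

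In the signalling lists, the NOTCH ligand gene *Jag1* had 18 co-occupied peaks, of which 11 had MLL3/4 at D0, *Dusp6*, an ERK phosphatase, had 13 and *Errfi1*, an EGF receptor inhibitor, had 8. *Notch3* received 5 and *Erbb2* 1 MLL3/4 peak with no SOX9 peak. Among WNT and hedgehog genes the most were at *Fzd7*, a WNT receptor gene, with 7, of which 2 had MLL3/4 at D0, then *Wnt4* with 5, *Gli2* with 4 and *Gli3* and *Wnt10a* with 3 each. *Ptch1*, the hedgehog receptor gene, received 2 SOX9-alone peaks, the strongest 119 kb from its start, and no MLL3/4 peak. Its co-receptor gene *Boc* received 2 SOX9-alone peaks beside 5 MLL3/4-alone peaks, and *Gli1* 2 MLL3/4 peaks only. The strongest SOX9 peak of *Boc* reached 1834 RPKM, the lowest maximum of the list, and had MLL3/4 at D0 and W1. Among AP1 genes, *Jun* had 7 co-occupied peaks and *Fos* and *Atf3* had 6 each, all with MLL3/4 at D0. *Junb* received 3 SOX9 peaks, of which none was co-occupied, and the strongest (chr8:84976069-84976808) was rank 4054 and lay 0.124 kb from the start. *Arid1b* of the SWI/SNF complex had 6 co-occupied peaks, and *Ncoa6*, a subunit of the MLL3/4 complexes, 1 SOX9-alone peak. *Kmt2c* and *Kmt2d* received no peak of either protein.

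The sorted population was checked with MLL3/4 peaks at the starts of marker genes. All 6 keratinocyte markers (*Krt5*, *Krt14*, *Trp63*, *Itga6*, *Col17a1* and *Dsg3*) had an MLL3/4 peak within 1 kb of a start, and of the 20 markers of leukocytes, endothelium, fibroblasts, pericytes, melanocytes, mast cells and glia 1 did, *Col1a1*. For these counts within 1 kb, no share of all genes is given here for comparison. At any distance, 9 of these 20, *Col1a1* included, were the nearest gene to an MLL3/4 peak. There were 12 such peaks for *Pecam1*, 6 each for *Dcn* and *Dct* and 3 for *Tek*, and *Pecam1* and *Dct* had 5 co-occupied peaks each. Of the 20, 6 had a co-occupied peak and 2 had MLL3/4 peaks only, against 26.4% and 11.3% of all protein-coding genes. The nearest-gene counts therefore do not set these markers apart from genes at large. Co-occupied peaks of *Dct* lay up to 302 kb from its start and none of the 5 had MLL3/4 at D0.

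The strongest co-occupied peaks were found in other lists too. By the worse of their ranks in the lists, the first 5 were at *Gm10800* and *Gm10801* on chromosome 2, at 2 neighbouring sites in exons of non-coding transcripts on chromosome 17 and in an intron of *Gm33838* on chromosome 9. All 5 were also in the SOX9 and the MLL3/4 lists of D0 and in the lists of cultured cells without DOX. Annotated repeats covered 81.7% of the *Gm10800* peak, 66.3% of the *Gm10801* peak and 92.0% of the *Gm33838* peak, but only 5.17% and 2.79% of the chromosome 17 peaks, which were rank 1 and rank 3 of the SOX9 list. Over 50% of bases were in repeats in 0.756% of co-occupied and 0.730% of SOX9-alone SOX9 peaks.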

How the data were processed

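SOX9 and MLL3/4 CNR was measured in sorted EpdSCs, and the pooled list of each group of 2 samples was used. For the authors' lists, reads were trimmed (Skewer), aligned to mm10 (Bowtie2 2.2.9), freed of duplicates (Picard), limited to fragments of up to 120 bp (SAMtools 1.3.1) and combined over replicates, coverage was made with deepTools 3.1.2 and peaks came from SEACR (stringent, threshold 0.01). Cells had been crosslinked. In the deposited SOX9 lists the maximum of a peak is in RPKM, and the authors kept peaks above 1800 RPKM. In all 5 deposited MLL3/4 lists used the maximum is a coverage signal in whole numbers, although the methods describe RPKM. The deposited score called total signal adds up the coverage along a peak, in those units, so it was ranked within a list only. In the SOX9 list of W2, all maxima were whole multiples of 76.4 RPKM, within 0.05 of a fragment, which was taken as 1 fragment.

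Overlaps, words and distances were computed with Python 3.11.15, numpy 2.4.6, pandas 2.3.3 and scipy 1.17.1, and plots with matplotlib 3.10.9. Starts came from GENCODE vM21 and sequence and repeats from GRCm38.p6. Distances to a start were taken from the peak, and genes were assigned from the centre of the maximum. Words were searched on both strands within 50 bp of that centre, and a longer SOX word inside the SOX word was also counted. Differences within rank bins are means over 10 bins, weighted by bin size. Over all SOX9 peaks, bin 1 with 27 SOX9-alone peaks thus counted as much as bin 10 with 865. The methods were tested on simulated data.

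The members, gene lists and words were chosen with earlier results of these data known. Of the 160 list genes, 160 matched, 1 by its newer symbol. The named genes were, per list, up to 4 with the most co-occupied peaks, up to 2 with SOX9 peaks of which none was co-occupied and up to 2 with MLL3/4 peaks only, and over all genes the 10, 5 and 5 with the most co-occupied, SOX9-alone and MLL3/4-alone peaks. *Sox9*, *Kmt2c*, *Kmt2d*, *Wnt10a* (tied with *Gli3*) and the cell markers were named beside them. The 5 strongest sites of each class were taken with and without peaks in repeats. Of these, 1 co-occupied site is not reported here. No control antibody list was used here. Alternatives covered the overlap rule, list size, signal limits, ranking measure, width, window, word, promoter and gene assignment. Comparisons within rank bins and without repeats, and list shares without the gene that moved each most, were added after the data were seen, as was the split of the AP1 and complex list.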

Additional observations from a re-analysis of the deposited data

How the results depend on the processing

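Of 98 alternatives, 35 stayed within the interval of the value reported, 53 moved outside it and 2 changed sign. The other 8 concern the number of genes with a co-occupied peak, which has no interval, and 5 of them stayed within 1.5 times the 5775 reported, the lowest at 4416. No paired analysis was possible because each list pools both replicates, and for the same reason no replicate could be left out. Where a setting moved a value, the cause was not tested. The share of SOX9 peaks co-occupied was 77.8% with an overlap of 50% of the shorter peak, 75.3% with the maximum inside the other peak, 66.2% with lists of equal size, 88.5% above 3600 RPKM and 57.4% with the MLL3/4 peaks above their median. The share of MLL3/4 peaks under these settings was 50.3%, 49.3%, 66.4%, 21.5% and 73.0%, and it was 50.5% for the strongest 50% of each list, 53.0% after merging within 500 bp and 52.1% without repeats.

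The difference between bin 1 and bin 10 of the SOX9 list was 47.27 points with the maximum inside the other peak, 36.79 above 3600 RPKM, 70.68 with MLL3/4 peaks above their median, 25.83 ranked by the maximum, 28.99 by mean signal per base and 37.77 at middle widths. That of the MLL3/4 list was 79.07 with an overlap of 50%, 60.08 above 3600 RPKM, 43.92 above its median, 59.40 by the maximum, 59.74 by mean signal and 55.74 at middle widths.

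The promoter difference of the SOX9 list was -12.97 points for the strongest 50%, -15.12 with equal sizes, -4.34 above 3600 RPKM, -17.90 with MLL3/4 peaks above their median, -7.51 with promoters of 2.5 kb, -5.82 at middle ranks and -5.78 within rank bins. That of the MLL3/4 list was 1.80 (-0.20 to 3.79) for the strongest 50%, 0.55 (-0.55 to 1.66) above 3600 RPKM, 2.41 with 2.5 kb, 12.56 at middle ranks and 8.67 within rank bins, so the first and second of these have intervals that reach 0.

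The SOX word difference was -7.73 points for the strongest 50%, -3.62 with equal sizes, -13.26 above 3600 RPKM, -2.60 with MLL3/4 peaks above their median, -2.63 for the longer word, -9.85 for distal peaks and -12.41 within rank bins. The AP1 difference was 6.13 for the strongest 50%, 8.29 above 3600 RPKM, 6.76 with wider windows, 3.39 for distal peaks and 6.08 within rank bins. Genes with a co-occupied peak numbered 3468 for the strongest 50%, 3265 above 3600 RPKM and 10884 when 50 kb around each gene was searched. Within rank bins the difference between co-occupied and SOX9-alone peaks was 39.20 points for MLL3/4 at D0, 39.06 for MLL3/4 at W1 and 11.76 for SOX9 at W1, and it changed sign for SOX9 at W6 (-4.15) and W12 (-10.86).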

Other observations

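The 14253 MLL3/4-alone peaks were narrower than co-occupied MLL3/4 peaks, with a median width of 300 bp against 479 bp, and 22.5% of them lay at promoters. Of these peaks 54.9% were in the MLL3/4 list of D0 and 48.6% in that of W1, against 73.2% and 85.1% of co-occupied MLL3/4 peaks. The difference at D0 was 18.27 points over all ranks and 1.81 points within rank bins, where it was above 0 in 4 of 10 bins. That at W1 was 36.43 points over all ranks and 15.09 points within rank bins, above 0 in 10 of 10 bins. SOX9 peaks of W6 lay at 15.8% of MLL3/4-alone peaks, against a background of 3.13%.

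The word of CTCF, a factor of chromatin loops, stood in 0.863% of MLL3/4-alone windows (0.724 to 1.03) and in 0.226% of co-occupied ones (0.162 to 0.316), against 0.295% and 0.263% of control windows. The TEAD word stood in 3.78% and 2.96%, against 1.25% and 1.39% of control windows, which is the opposite order to that in the SOX9 list. Over 50% of bases were in annotated repeats in 4.39% of MLL3/4-alone peaks and 0.845% of co-occupied ones, and among such MLL3/4 peaks 16.9% were co-occupied, against 52.2% of the others. The genes with the most MLL3/4-alone peaks were *Sfi1* with 34, *Gata3* with 27, *Cwc22* with 26, *Sox9* with 23 and *Epha4* with 21. *Sfi1* and *Cwc22* had only 3 and 1 co-occupied peaks. The 5 MLL3/4-alone peaks of highest total signal were each in the MLL3/4 list of D0 and in both MLL3/4 lists of cultured cells. Each was also in both MYC-tag lists of cultured cells, with and without DOX. The peak among them at *Gm21738*, with 93.8% of its bases in repeats, was in the SOX9 lists of D0, W1, W6 and W12 as well.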
